A study of Homo sapiens with 12 samples.

Results

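Ribosome biogenesis factors are the nucleolar and nuclear proteins that modify, cut, fold and export the precursors of the ribosome. The group described here comprises 41 genes, chosen by name from a list of such factors. All 41 were found among the 23621 gene rows of the tables, and all 41 belong to the 14251 genes taken as active, with an FPKM above 1 in at least 1 of 12 libraries. FPKM counts the sequenced fragments of a gene relative to its transcript length and to the size of the library. The libraries come from KURAMOCHI (Ku) and COV362 (Cov), untransduced human ovarian cancer cell lines. Ku cells were grown in RPMI and Cov cells in DMEM, each with 10% fetal bovine serum and penicillin/streptomycin. Each line has 2 libraries from cells given DMSO, the vehicle, 2 from cells given 50 nM THZ1 and 2 from cells given 250 nM THZ1, all for 6 hr. THZ1 is a covalent inhibitor of CDK7, CDK12 and CDK13, kinases that phosphorylate RNA polymerase II, and the comparisons ask how much of each mRNA was left after it.

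Ribosome assembly begins in the nucleolus, where RNA polymerase I transcribes one long precursor of the 18S, 5.8S and 28S rRNAs. Box C/D and box H/ACA small nucleolar RNAs, carried by a few core proteins, guide 2′-O-methylation and pseudouridylation of that precursor. The small-subunit processome then frees the 18S part, and a separate chain of factors matures the large subunit before export. Growing tumour cells make many ribosomes, and many of these factors are known as target genes of MYC, which with MAX binds the E-box CACGTG.

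The values are FPKM that the authors normalized to ERCC spike-in RNAs, which they mixed into RNA scaled to cell number, so a fall in every gene at once can be seen. Such values cannot tell less RNA per cell from fewer intact cells behind a sample. Summed FPKM lay between 1227780 and 1686570 in the DMSO libraries, 976344 and 1195880 at 50 nM and 607016 and 764273 at 250 nM. Replicates correlated with Pearson's r of 0.968 to 0.983 across active genes. Read depth is unknown. PAX8, a marker of serous ovarian cells, had a mean of 136 FPKM in Ku DMSO cells and 124 in Cov, and the epithelial keratins KRT8 and KRT18 were between 792 and 2430. Other markers of these lines were low in 1 of them. WT1 was at 0.653 FPKM in Cov, against 56.8 in Ku. In Ku MUC16 was at 0.166, EPCAM at 4.13 and KRT7 at 4.61, against 5.71, 162 and 1360 in Cov. The leukocyte markers PTPRC and CD3E stayed at or below 0.299 FPKM in all libraries. Each log2 fold change subtracts the mean log2(FPKM + 1) of one group from that of another, which understates changes at low FPKM. They were tested with limma in each line, and the word called is used for an adjusted p under 0.001 together with a fold change beyond 0.5 on the log2 scale. The 50 nM and 250 nM comparisons of a line share their DMSO libraries, and the lines were normalized in separate tables and were not tested against each other.

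Promoter sequence was not itself used to choose the genes. Many of them belong to the MYC target list that the study tested, so their share of E-boxes is not independent of the choice. Of the 41 genes, 35 had a window in the RefSeq promoter table (GRCh38.p14, 250 bases before to 50 bases after a start site), and NOP58, NOLC1, BOP1, RRP12, RRS1 and DDX18 did not. CACGTG, which reads the same on both strands, was in a window of 19 of the 35 (54.3%), against 12.6% of 10050 active genes with a window and 8.77% of all 27305 genes in the table. The share was 31.1% among the other ribosome biogenesis factors listed, 7.69% for the RNA polymerase I machinery and 6.35% for cytoplasmic ribosomal proteins. The GC box, GGGCGG or its reverse complement CCGCCC, which can overlap an E-box by its end base, was in 80.0% of the 35 genes and 76.9% of active genes. Of the 21 E-boxes found, 19 lay within 100 bases of a start site and 15 began downstream of it, with a median position of 7 bases after the start. A match is a string of letters, and binding was not measured.

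Promoter windows follow for 5 genes that mark the ends of the response described below. WDR43 and BYSL were among the most strongly lowered, FBL and NOP10 among the more persistent, NOP10 with 2 E-boxes, and EMG1, with no CACGTG, fell at the lower dose already. Each is written 5′ to 3′ on the gene's strand, with CACGTG in capitals. The windows are WDR43 at chr2:28894417-28894716 (plus), BYSL at chr6:41921249-41921548 (plus), FBL at chr19:39846330-39846629 (minus), NOP10 at chr15:34343087-34343386 (minus) and EMG1 at chr12:6970663-6970962 (plus).
WDR43: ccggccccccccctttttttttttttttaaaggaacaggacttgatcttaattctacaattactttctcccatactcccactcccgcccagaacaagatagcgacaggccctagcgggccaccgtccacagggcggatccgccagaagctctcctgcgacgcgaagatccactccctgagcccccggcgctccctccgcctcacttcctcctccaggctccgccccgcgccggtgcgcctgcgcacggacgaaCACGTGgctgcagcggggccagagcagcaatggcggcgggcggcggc
BYSL: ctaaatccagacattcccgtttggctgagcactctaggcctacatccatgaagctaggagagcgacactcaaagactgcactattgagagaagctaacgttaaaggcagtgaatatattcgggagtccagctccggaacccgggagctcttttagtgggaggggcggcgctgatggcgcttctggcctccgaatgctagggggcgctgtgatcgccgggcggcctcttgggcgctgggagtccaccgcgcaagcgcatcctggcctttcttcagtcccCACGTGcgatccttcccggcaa
FBL: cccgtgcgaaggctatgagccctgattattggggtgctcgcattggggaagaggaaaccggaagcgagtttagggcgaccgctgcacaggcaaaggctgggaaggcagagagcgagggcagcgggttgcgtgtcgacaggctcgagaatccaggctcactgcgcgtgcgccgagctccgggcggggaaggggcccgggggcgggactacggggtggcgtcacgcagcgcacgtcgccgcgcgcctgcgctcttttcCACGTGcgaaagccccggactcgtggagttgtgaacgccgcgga
NOP10: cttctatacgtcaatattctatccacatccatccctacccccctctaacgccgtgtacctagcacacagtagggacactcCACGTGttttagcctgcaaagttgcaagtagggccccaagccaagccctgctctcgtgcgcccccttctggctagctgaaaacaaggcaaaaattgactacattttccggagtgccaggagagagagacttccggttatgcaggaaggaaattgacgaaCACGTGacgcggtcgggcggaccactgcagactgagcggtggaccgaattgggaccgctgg
EMG1: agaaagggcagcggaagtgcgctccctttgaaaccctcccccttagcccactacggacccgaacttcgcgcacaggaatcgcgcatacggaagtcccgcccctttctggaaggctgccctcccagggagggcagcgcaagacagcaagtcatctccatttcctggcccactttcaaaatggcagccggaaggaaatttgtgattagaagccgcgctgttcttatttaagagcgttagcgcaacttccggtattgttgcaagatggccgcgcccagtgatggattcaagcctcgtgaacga

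The E-box began 4 bases after the start site in WDR43, 29 bases after it in BYSL and 7 bases after it in FBL, just past the start in strongly and weakly lowered genes alike. In NOP10 the E-boxes began 170 and 11 bases upstream, positions −170 and −11. The 19 genes with an E-box had a median log2 fold change at 250 nM of −1.77 in Ku and −1.90 in Cov, and the 16 without had −1.58 and −1.77. At 50 nM the medians were −0.47 and −0.39 in Ku and −1.01 and −0.86 in Cov. These medians describe the genes and were not tested.

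**Figure D1:**
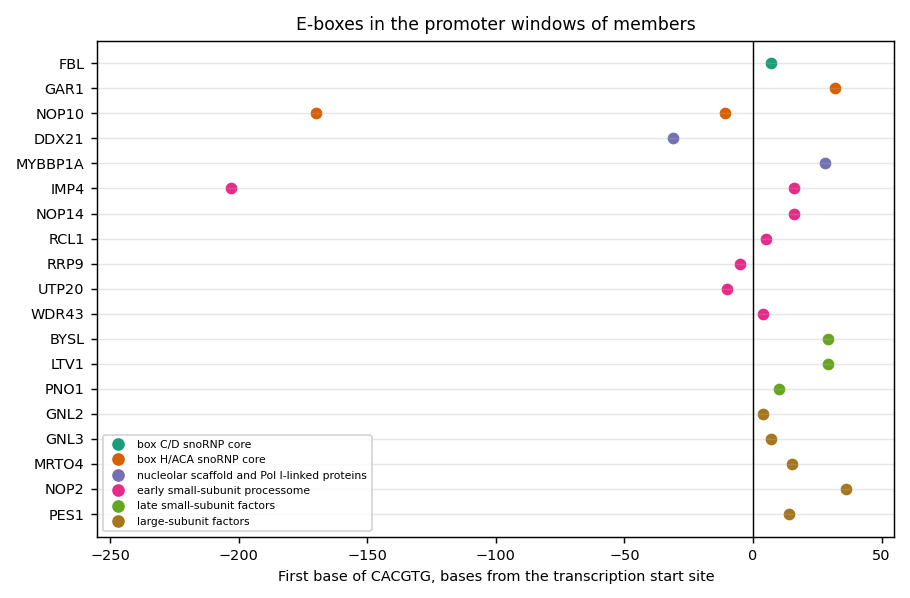
Position of each CACGTG in the promoter windows, as the first base of the motif in bases from the transcription start site (x axis), for the 19 genes that hold one (y axis, coloured by role). Of the 21 motifs, 19 lie within 100 bases of the start, and IMP4 and NOP10 hold 2 each.

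Before treatment the factors spanned a wide range of mRNA levels. FPKM is per transcript length, so genes can be compared on it. NPM1, the nucleolar chaperone nucleophosmin, led in both lines with a DMSO mean of 2950 ± 203 FPKM in Ku and 3960 ± 440 in Cov (SD, n = 2). NCL, the nucleolar RNA-binding protein nucleolin, followed at 911 ± 49.0 and 1270 ± 133. Together they made up 52.6% of the summed FPKM of the 41 genes in Ku and 52.1% in Cov. The lowest in Ku was UTP20 at 11.3 ± 2.04 FPKM and in Cov RCL1 at 19.1 ± 1.47. Of the 40 pairs of neighbours in the order of DMSO levels, 26 in Ku and 23 in Cov had overlapping libraries. The DMSO mean was higher in Cov for 31 of the 41 genes, which was not tested. Summed over the 41 genes, mean FPKM went from 7350 in DMSO to 6190 at 50 nM and 3770 at 250 nM in Ku, and from 10000 to 6200 and 3870 in Cov.

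At 250 nM nearly the whole group fell in both lines on the spike-in scale. In Ku cells 40 of 41 genes were called lower, against 68.6% of all active genes, and in Cov cells 41 of 41, against 84.0%. None was called higher by limma in any of the 6 comparisons, as few active genes were (0.0842%, 0.0491% and 0.0421% in Ku and 0.0772%, 0.105% and 0.0842% in Cov, at 50 nM, at 250 nM and between the doses), and none was higher at an unadjusted p under 0.05. Both 250 nM libraries lay below both DMSO libraries for 41 of 41 genes in each line, as they did for 95.9% of active genes in Ku and 95.6% in Cov. The median of the group lay below that of all genes. It was −1.65 on the log2 scale in Ku, against −1.11 for all active genes, and −1.83 in Cov, against −1.31, and 33 and 35 of the 41 genes lay below the median of all genes. The median gene kept 29.7% of its DMSO FPKM in Ku, within a range of 3.08% to 66.1%, and 26.3% in Cov, within 5.81% to 53.8%. With 2 libraries against 2, the smallest p of an exact permutation test on 1 gene is 0.33, so calls rest on the spread that limma shares across genes.

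**Figure D2:**
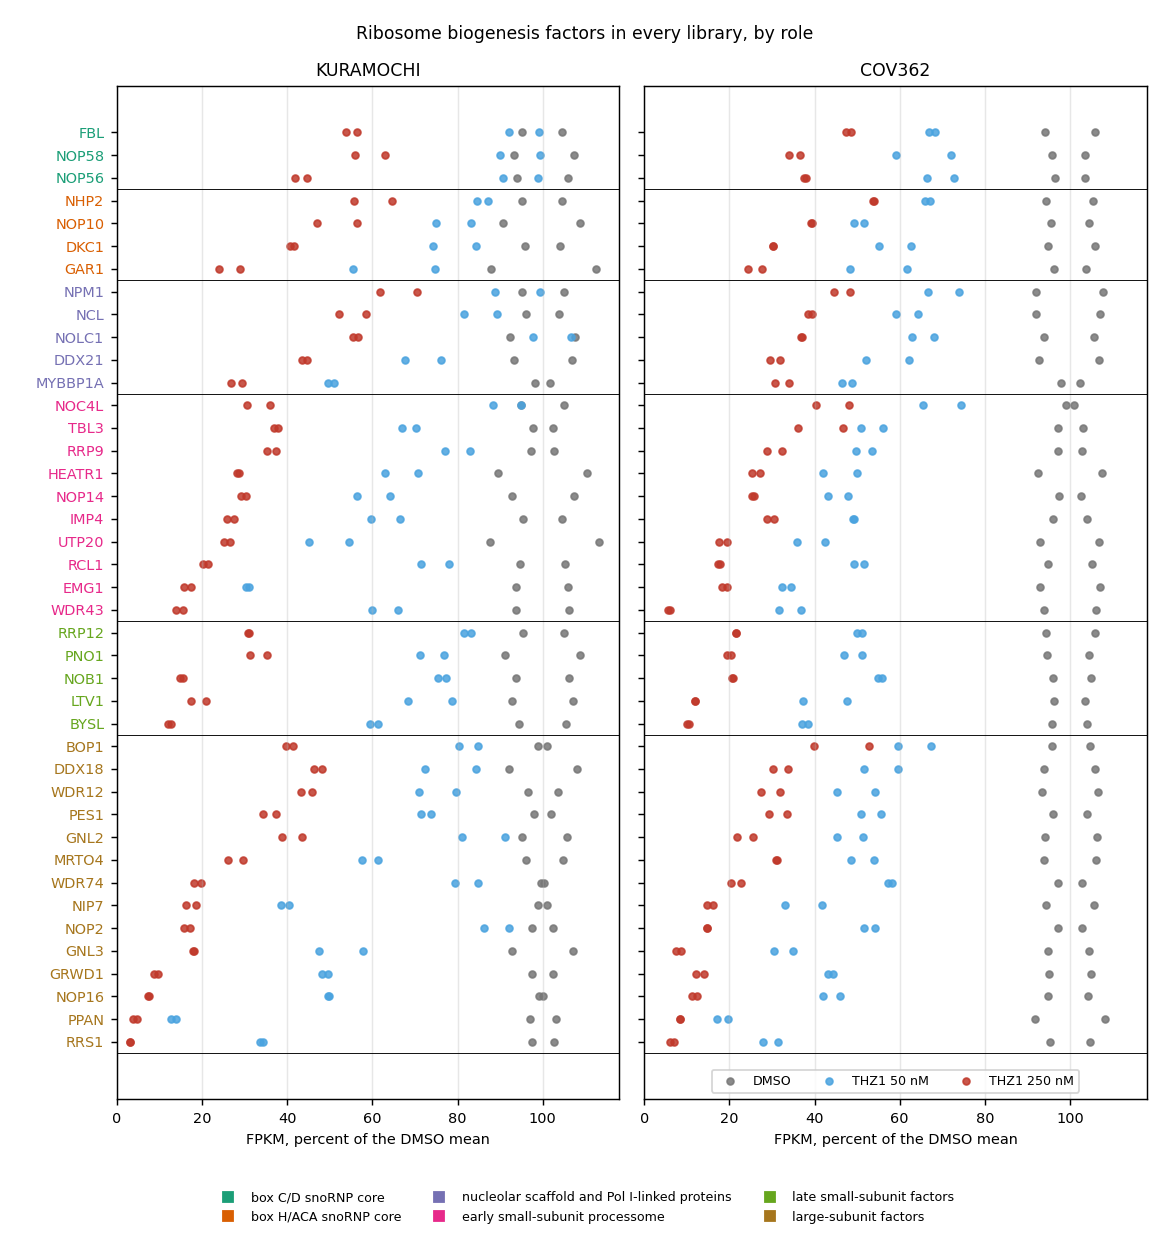
Spike-in normalized FPKM of the 41 genes in every library as a percent of the mean of the DMSO libraries (x axis), with KURAMOCHI on the left and COV362 on the right and genes grouped and coloured by role (y axis). Points are single libraries; all 250 nM points lie below the DMSO points of the same gene, and RRS1 and PPAN in Ku and WDR43 in Cov lie closest to 0. Under a scaling to equal library medians 27 of these genes in Ku and 23 in Cov turned to a rise at 250 nM. The median log2 fold change of all active genes was then 0.30 in Ku and 0.33 in Cov.

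How far this is a change beyond the general loss of mRNA depends on the scale. When every library was brought to an equal median FPKM, the median log2 fold change at 250 nM became 0.30 in Ku and 0.33 in Cov over all active genes, and 0.22 and 0.14 over the 41 factors. On that scale 8 factors were called lower and 12 higher in Ku, against 11.7% and 27.0% of active genes, and 9 lower and 8 higher in Cov, against 11.3% and 26.6%. The 7 called lower in both lines were BYSL, GRWD1, NOP16, NOP2, PPAN, RRS1 and WDR43. With a median-of-ratios scaling the medians of all genes were −0.00 and 0.01 and those of the factors −0.28 and −0.29, with 14 called lower and 3 higher in Ku, against 19.0% and 11.1%, and 17 lower and 2 higher in Cov, against 18.9% and 8.57%. The 14 called lower in both lines then added EMG1, GNL3, LTV1, NIP7, NOB1, RCL1 and WDR74 to the 7 named. FBL, the box C/D methyltransferase, was called higher in both lines under both of these scalings. Directions given below are on the spike-in scale, and the genes whose sign at 250 nM against DMSO turned under the other scalings are listed with their values in the closing section.

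The factors of the large subunit and the late small subunit had the lowest median log2 fold changes of the roles. The 14 large-subunit factors had a median log2 fold change at 250 nM of −2.33 in Ku and −2.36 in Cov, and the 5 late small-subunit factors −2.29 and −2.27. The 10 genes of the early processome had −1.67 and −1.86, the 4 box H/ACA proteins −1.10 and −1.52, the 5 scaffold and polymerase I-linked proteins −0.85 and −1.42, and the 3 box C/D proteins −0.85 and −1.39. The snoRNP and scaffold medians lay above that of all active genes in Ku and slightly below it in Cov. Scaled to equal medians the large-subunit median stayed negative, at −0.44 and −0.37, as did that of the late small-subunit factors, while those of the box C/D proteins became 1.12 and 0.67 and those of the early processome 0.12 and 0.12. These role medians describe few genes each and were not tested against each other.

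**Figure D3:**
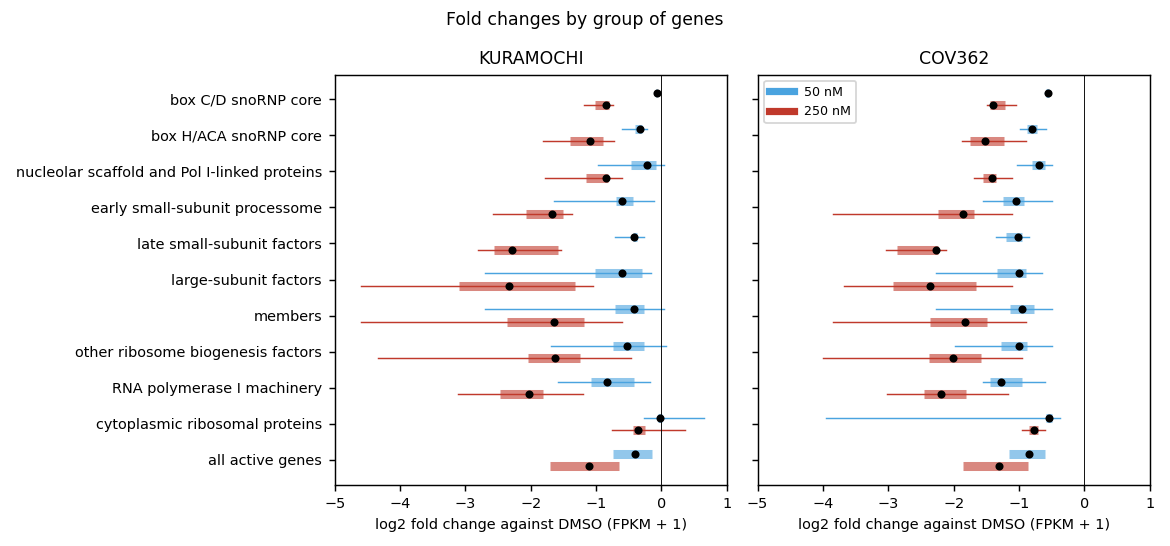
Log2 fold change against DMSO of FPKM + 1 on the spike-in scale (x axis) for each role group, the 41 members together, the comparison lists and all active genes (y axis), with 50 nM in blue and 250 nM in red. Points are medians, thick bars the span between the lower and upper quartiles and thin lines the full range (not drawn for all active genes); the large-subunit median is −2.33 in Ku and −2.36 in Cov, and the ribosomal protein median −0.36 and −0.78. Scaled to equal library medians, the median of the 41 members at 250 nM turned positive, to 0.22 and 0.14, against 0.30 and 0.33 for all active genes.

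RRS1, which brings the 5S ribonucleoprotein into the pre-60S particle, had the largest fall of the group in Ku. Its FPKM there was 95.5 and 90.7 in DMSO, 32.0 and 31.3 at 50 nM and 2.81 and 2.93 at 250 nM. In Cov it was 67.5 and 74.3, then 19.8 and 22.2, then 4.89 and 4.29. The 3 groups did not overlap in either line. The log2 fold change at 250 nM was −4.60 ± 0.07 (SE) in Ku, with a limma adjusted p of 4.79e-06, and −3.69 ± 0.10 in Cov, with a limma adjusted p of 8.16e-07. RRS1 is a gene with 1 exon.

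PPAN, the pre-60S factor also known as Peter Pan, was the gene most lowered at 50 nM in both lines. Ku libraries had 40.1 and 37.7 FPKM in DMSO, 5.38 and 4.93 at 50 nM and 1.46 and 1.79 at 250 nM. Cov libraries had 31.2 and 36.8, then 6.72 and 5.83, then 2.83 and 2.86. Most of the loss was thus present at the lower dose, where 13.3% of the DMSO level was left in Ku and 18.5% in Cov. At 250 nM the log2 fold change was −3.93 ± 0.12 (SE, limma adjusted p = 6.86e-06) in Ku and −3.18 ± 0.12 (limma adjusted p = 8.6e-07) in Cov. PPAN (chr19:10217038-10222688 in GRCh37, plus strand) overlaps on its own strand the read-through gene PPAN-P2RY11, whose FPKM went from 0.153 and 0.148 in Ku DMSO to 0.932 and 1.47 at 250 nM, and from 0.127 and 0.139 to 0.1 and 0.403 in Cov. P2RY11, on the same strand, went from 3.5 and 3.18 to 1.27 and 0.964 in Ku, and from 0.875 and 0.773 to 1.51 and 1.54 in Cov. How reads were split between these rows is not given in the sources used here.

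WDR43, a UTP-A subunit that joins the nascent pre-rRNA early, had the largest fall in Cov. Its FPKM in Cov was 77.9 and 88.0 in DMSO, 26.3 and 30.6 at 50 nM and 5.08 and 4.56 at 250 nM. In Ku it was 43.0 and 38.0, then 26.7 and 24.3, then 5.58 and 6.26. The groups were apart in both lines. The log2 fold change at 250 nM was −3.85 ± 0.11 (SE, limma adjusted p = 8.16e-07) in Cov and −2.58 ± 0.10 (limma adjusted p = 8.89e-06) in Ku. Its promoter, printed above, holds an E-box 4 bases past the start.

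NOP16, a pre-60S protein, and GNL3, the GTPase nucleostemin, completed the genes with the largest falls. NOP16 in Ku was at 124 and 123 FPKM in DMSO, 61.7 and 61.4 at 50 nM and 9.45 and 9.06 at 250 nM. Cov libraries were at 111 and 122, then 53.7 and 49.1, then 13.1 and 14.4. About as much was left at 50 nM in either line, 49.7% in Ku and 44.1% in Cov, and at 250 nM its log2 fold change was −3.61 ± 0.06 (SE, limma adjusted p = 4.79e-06) in Ku and −2.99 ± 0.10 (limma adjusted p = 8.16e-07) in Cov. GNL3 in Ku was at 119 and 103 FPKM in DMSO, 64.2 and 52.6 at 50 nM and 19.7 and 20 at 250 nM. The Cov libraries had 187 and 206, then 60.0 and 68.6, then 16.8 and 14.7. GNL3 kept 17.9% of its DMSO level at 250 nM in Ku and 8.02% in Cov, with log2 fold changes of −2.42 ± 0.12 (SE, limma adjusted p = 1.25e-05) and −3.56 ± 0.11 (limma adjusted p = 8.16e-07).

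The other large-subunit factors were called lower at 250 nM in both lines as well. The shares of active genes called lower were 68.6% in Ku and 84.0% in Cov. Their log2 fold changes, those of the other large-subunit factors, ran from −3.31 to −1.05 in Ku and from −2.72 to −1.12 in Cov. GRWD1, a WD-repeat protein bound to pre-60S particles, had −3.31 in Ku and −2.72 in Cov. NOP2, a methyltransferase of 28S rRNA, had −2.46 and −2.69, NIP7 had −2.37 and −2.59, and WDR74 had −2.30 and −2.14. MRTO4, which holds the place of the stalk protein on the pre-60S particle, had −1.82 and −1.66, and the GTPase GNL2 had −1.27 and −2.04. BOP1, PES1 and WDR12, which form the PeBoW complex needed for 5.8S and 28S maturation, had −1.29, −1.44 and −1.13 in Ku and −1.12, −1.62 and −1.67 in Cov. The helicase DDX18 had −1.05 and −1.62. Under a scaling to equal medians the signs of BOP1, PES1, WDR12, DDX18 and MRTO4 turned in both lines and that of GNL2 in Ku. BOP1 in Cov was not called without the second DMSO replicate (−1.05, limma adjusted p = 0.00161), and DDX18 in Ku was not called without the first 250 nM replicate (−1.08, limma adjusted p = 0.00133) or the second (−1.02, limma adjusted p = 0.00158).

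All 5 late small-subunit factors were called lower at 250 nM in both lines, against 68.6% of active genes in Ku and 84.0% in Cov. With equal medians 2 were called lower in each line, against 11.7% and 11.3%. BYSL (bystin), a factor of the pre-40S particle, had a log2 fold change of −2.81 in Ku and −3.03 in Cov, with 12.3% and 10.3% of the DMSO level left. NOB1, the endonuclease that cuts the 3′ end of 18S rRNA, had −2.56 and −2.24, and its partner PNO1 had −1.53 and −2.27. LTV1, which is released from the pre-40S head, had −2.29 and −2.86, and RRP12, an export-linked protein, −1.58 and −2.11. With libraries scaled to equal medians PNO1 and RRP12 turned positive in Ku.

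All 10 early-processome genes were called lower at 250 nM in both lines, against 68.6% of active genes in Ku and 84.0% in Cov. With equal medians 1 was called lower in each line, against 11.7% and 11.3%. WDR43 aside, the log2 fold changes ran from −2.47 to −1.36 in Ku and from −2.37 to −1.11 in Cov. EMG1, a methyltransferase of 18S rRNA, had −2.47 and −2.37. RCL1, a cyclase-like protein, had −2.15 and −2.21. The U3 protein RRP9 had −1.39 and −1.67, IMP4 of the MPP10 complex −1.86 and −1.72, NOP14 −1.65 and −1.90, and its partner NOC4L −1.46 and −1.11. The large scaffold proteins HEATR1 and UTP20 had −1.70 and −1.65 in Ku and −1.83 and −2.25 in Cov, and the UTP-B subunit TBL3 −1.36 and −1.24. With equal medians the signs of RRP9, IMP4, NOP14, NOC4L, HEATR1 and TBL3 turned in both lines and that of UTP20 in Ku. UTP20 in Ku was not called without the first 250 nM replicate (−1.62, limma adjusted p = 0.00151) or the second (−1.67, limma adjusted p = 0.00132).

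The box C/D proteins kept more of their mRNA. FBL, the methyltransferase fibrillarin, was at 508 and 463 FPKM in Ku DMSO libraries, 482 and 448 at 50 nM and 274 and 262 at 250 nM. In Cov the values were 536 and 603, then 381 and 389, then 270 and 277. The 50 nM libraries overlapped those of DMSO in Ku and lay below them in Cov. NOP56, a scaffold of the box C/D particle, was at 192 and 170, then 179 and 164, then 81.0 and 75.9 in Ku. Its values in Cov were 198 and 212, then 136 and 149, then 77.7 and 77.1. It followed the same pattern, with an overlap at 50 nM in Ku. NOP58, its partner, was at 161 and 140, then 149 and 135, then 94.4 and 83.9 in Ku. Cov libraries had 185 and 200, then 114 and 139, then 70.5 and 65.7. At 250 nM the log2 fold changes in Ku were −0.85 ± 0.07 (SE, limma adjusted p = 7.46e-05) for FBL, −1.19 ± 0.08 (limma adjusted p = 3.57e-05) for NOP56 and −0.75 ± 0.10 (limma adjusted p = 0.000501) for NOP58. In Cov they were −1.05 ± 0.09, −1.39 ± 0.08 and −1.49 ± 0.11, each called. All 3 turned positive in both lines under both other scalings. NOP58 in Ku was not called without the first DMSO replicate (−0.65, limma adjusted p = 0.00298), the first 250 nM replicate (−0.83, limma adjusted p = 0.00151) or the second (−0.66, limma adjusted p = 0.00344), nor with eBayes without the trend (limma adjusted p = 0.00145) or no minimum FPKM (limma adjusted p = 0.00182).

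At 50 nM these 3 box C/D genes were close to DMSO in Ku. Their log2 fold changes were −0.06 (95% interval −0.24 to 0.12) for FBL, −0.07 (−0.28 to 0.13) for NOP56 and −0.08 (−0.32 to 0.16) for NOP58. None of the 3 was called by limma, and none had an unadjusted p under 0.05, so a change within these intervals was not detectable. In Cov FBL and NOP56 were called lower at 50 nM, at −0.56 and −0.52, while NOP58 at −0.61 was not (limma adjusted p = 0.00149). With equal medians the 3 values at 50 nM turned positive, to 0.62 to 0.64 in Ku and 0.61 to 0.70 in Cov. With median-of-ratios they were 0.47 to 0.50 and 0.42 to 0.50. None of the 3 was called by limma under either scaling.

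The box H/ACA proteins, which carry out and support pseudouridylation, varied more among themselves. DKC1, the pseudouridine synthase dyskerin, was at 83.1 and 76.6 FPKM in Ku DMSO libraries, 67.3 and 59.4 at 50 nM and 33.2 and 32.5 at 250 nM. In Cov it was at 146 and 163, then 84.8 and 96.6, then 46.5 and 46.5. Both doses lay below DMSO in both lines. GAR1 was at 40.6 and 31.7, then 27.0 and 20, then 10.4 and 8.61 in Ku. The Cov values were 57.2 and 61.6, then 28.7 and 36.7, then 16.4 and 14.4. GAR1 had the lowest level of the 4 and, at 250 nM, the largest relative loss. NHP2 was at 317 and 288, then 264 and 256, then 196 and 169 in Ku. In Cov its FPKM was 417 and 466, then 297 and 291, then 238 and 237. Much of the NHP2 mRNA remained at 250 nM, 60.3% in Ku and 53.8% in Cov. NOP10 was at 187 and 156, then 143 and 129, then 97.0 and 80.8 in Ku. The values in Cov were 346 and 378, then 187 and 178, then 143 and 142. At 50 nM 79.5% of the DMSO level of NOP10 was left in Ku and 50.4% in Cov.

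At 250 nM the log2 fold changes of these box H/ACA genes in Ku were −1.25 ± 0.08 (SE, limma adjusted p = 2.9e-05) for DKC1, −1.81 ± 0.19 (limma adjusted p = 0.000166) for GAR1, −0.73 ± 0.09 (limma adjusted p = 0.00035) for NHP2 and −0.94 ± 0.13 (limma adjusted p = 0.00052) for NOP10. In Cov they were −1.71 ± 0.10, −1.88 ± 0.13, −0.89 ± 0.09 and −1.34 ± 0.08, each called. With equal medians all 4 turned positive in both lines. The calls for 3 of them in Ku were lost without some single libraries. Without the first DMSO replicate the values were −1.64 for GAR1 (limma adjusted p = 0.00129), −0.66 for NHP2 (limma adjusted p = 0.0028) and −0.81 for NOP10 (limma adjusted p = 0.00312). Without the second 250 nM replicate they were −1.69 (limma adjusted p = 0.00126), −0.62 (limma adjusted p = 0.0017) and −0.81 (limma adjusted p = 0.00267). NHP2 was also not called without the second DMSO replicate (−0.80, limma adjusted p = 0.00121). NHP2 and NOP10 were further not called with eBayes without the trend (limma adjusted p = 0.00111 and 0.00138) or with no minimum FPKM (limma adjusted p = 0.00131 and 0.00216).

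NPM1 and NCL, the most abundant of the group, were among its persistent mRNAs. NPM1 was at 3100 and 2810 FPKM in Ku DMSO libraries, 2930 and 2620 at 50 nM and 2080 and 1820 at 250 nM. In Cov it was at 3640 and 4270, then 2640 and 2930, then 1910 and 1760. The 250 nM libraries lay below DMSO in both lines, and the 50 nM libraries overlapped DMSO in Ku. NPM1 was the gene not called at 250 nM in Ku, with a log2 fold change of −0.60 ± 0.11 (SE, limma adjusted p = 0.00256). With the replicate number as a block in the fit it was called there (limma adjusted p = 5.47e-05). In Cov it was called at −1.11 ± 0.13 (limma adjusted p = 8.16e-05), but not without the second 250 nM replicate (−1.05, limma adjusted p = 0.00151) or with no minimum FPKM, where the limma adjusted p came to the threshold of 0.001. The difference between lines was not tested. The annotation names 49 numbered NPM1 pseudogenes, so its reads are uncertain. NCL was at 946 and 876, then 813 and 742, then 533 and 476 in Ku. In Cov the FPKM was 1170 and 1360, then 750 and 817, then 499 and 488. NCL had −0.85 ± 0.09 (SE, limma adjusted p = 0.000162) in Ku and −1.35 ± 0.11 in Cov. In Ku it was not called without the first DMSO replicate (−0.80, limma adjusted p = 0.00162) or the second 250 nM replicate (−0.77, limma adjusted p = 0.00119). Both genes turned positive in both lines under both other scalings.

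Of the other nucleolar proteins, the helicase DDX21 had −1.16 in Ku and −1.69 in Cov at 250 nM, NOLC1, a chaperone of snoRNPs, −0.82 and −1.42, and MYBBP1A, a nucleolar protein linked to polymerase I, −1.77 and −1.55, all called on the spike-in scale and all turned in sign by equal medians. NOLC1 in Ku was not called without the first 250 nM replicate (−0.83, limma adjusted p = 0.00179) or the second (−0.80, limma adjusted p = 0.00204).

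**Figure D4:**
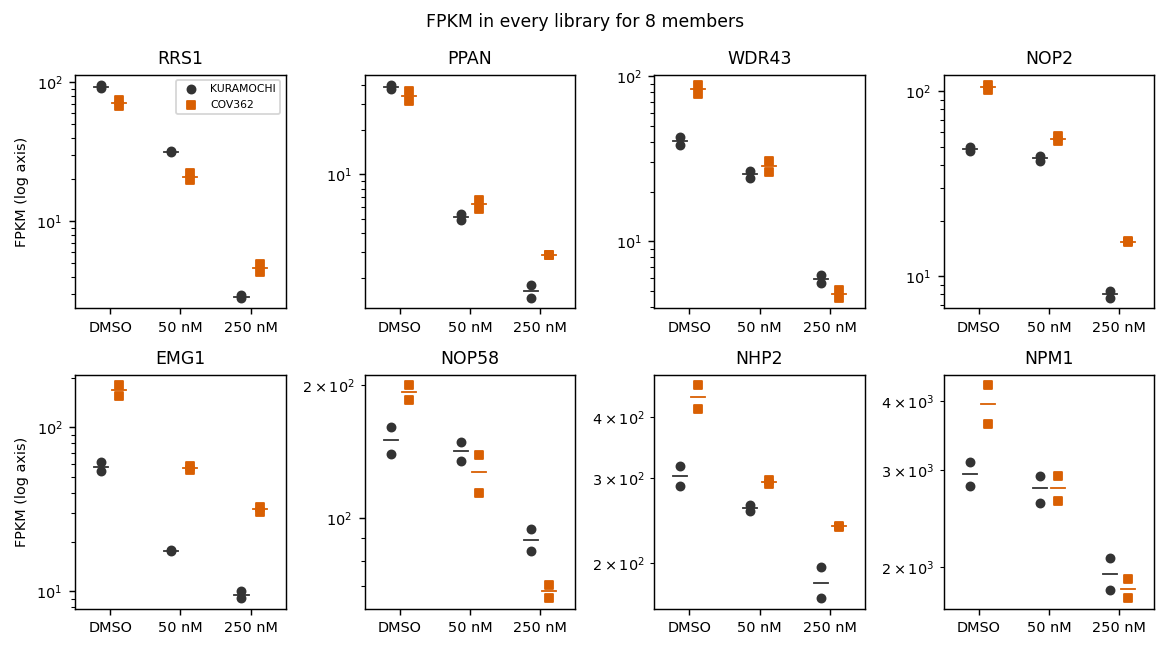
FPKM on a log axis (y axis) in each library of KURAMOCHI (dark circles) and COV362 (orange squares) by treatment (x axis) for RRS1, PPAN, WDR43, NOP2, EMG1, NOP58, NHP2 and NPM1, with a line at each mean. The y axes differ between panels; RRS1 goes from 95.5 and 90.7 to 2.81 and 2.93 in Ku, and NPM1 from 3100 and 2810 to 2080 and 1820. NOP58, NHP2 and NPM1 turned to a rise at 250 nM in both lines when libraries were scaled to equal medians. The median log2 fold change of all active genes was then 0.30 in Ku and 0.33 in Cov.

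At 50 nM 7 of 41 genes were called lower in Ku, against 11.3% of active genes, and 37 of 41 in Cov, against 70.5%. With the replicate number as a block in the fit 9 and 26 were called lower, against 6.94% and 51.0%. The median log2 fold change was −0.42 in Ku, against −0.40 for all active genes, and −0.95 in Cov, against −0.85. These medians turned positive under the other scalings, to 0.27 and 0.24 with equal medians and 0.13 and 0.05 with median-of-ratios. Those of all active genes were then lower, at 0.11 and 0.13 with equal medians and 0.02 and 0.0 with median-of-ratios. Both 50 nM libraries lay below both DMSO libraries for 36 of 41 genes in Ku (75.8% of active genes) and 41 of 41 in Cov (95.7%). The genes not called in Cov were NOP58, NPM1, NOC4L and BOP1. The Cov count lay between 19 and 34 without 1 library, lowest without the second DMSO replicate. It was 0 under both other scalings, where limma gave 6 genes lower at an unadjusted p under 0.05 with equal medians and 8 with median-of-ratios, and 0.154% and 0.772% of active genes were called lower. The lines were not tested against each other.

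The 7 genes called at 50 nM in Ku were PPAN at −2.70, EMG1 at −1.64, RRS1 at −1.53, NIP7 at −1.29, GRWD1 at −1.02, NOP16 at −1.0 and MYBBP1A at −0.97, with limma adjusted p-values from 0.000223 to 0.000377. All 7 were also called lower at 50 nM in Cov, at −2.26, −1.56, −1.71, −1.39, −1.14, −1.17 and −1.03. In that comparison 37 of the 41 genes and 70.5% of active genes were called lower. The 7 calls became 0 when any 1 of the 6 Ku libraries was left out of the limma fit, where 23 to 33 genes were lower at an unadjusted p under 0.05, and 17 genes passed at an adjusted p under 0.05 with all libraries, against 40.2% of active genes. Scaled to equal medians 1 was called, PPAN, and with median-of-ratios 2, PPAN and RRS1, against 0.589% and 2.72% of active genes.

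From 50 nM to 250 nM 33 of 41 genes were called lower in Ku, against 36.0% of active genes, and 30 of 41 in Cov, against 24.4%. With the replicate number as a block in the fit 40 and 13 were called lower, against 34.7% and 7.93%. The median difference was −1.07 in Ku and −0.88 in Cov, against −0.62 and −0.41 for all active genes, and 38 of the 41 genes lay below the median of all genes in each line. With equal medians 7 were called lower in Ku and 6 in Cov, against 6.59% and 5.05% of active genes. The medians became 0.15 and −0.04, against 0.25 and 0.23 for all active genes. With median-of-ratios 9 and 12 were called lower, against 11.1% and 7.92%. The medians were −0.23 and −0.30, against 0.03 and 0.04 for all active genes. The Ku count on the spike-in scale was between 11 and 31 without 1 library, lowest without either 250 nM replicate, and the Cov count between 13 and 28. In every library of Ku, 36 of 41 genes kept the order of DMSO above 50 nM above 250 nM, against 66.7% of active genes, with FBL, NOLC1, NOP56, NOP58 and NPM1 out of order. In Cov 41 of 41 did, against 73.8%.

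The dose at which an mRNA was lost differed between genes, as some chosen after their values were seen show. EMG1 in Ku went from 61.1 and 54.0 FPKM to 17.5 and 17.9 at 50 nM and 10.0 and 9.07 at 250 nM, most of the loss at the lower dose. NOP2 in Ku went from 49.8 and 47.4 to 44.8 and 41.9 and then to 7.64 and 8.37, nearly all of it at the higher dose. In Cov EMG1 was at 156 and 180, then 54.5 and 58.0, then 30.6 and 32.5. In Cov NOP2 was at 102 and 108, then 54.1 and 57.0, then 15.4 and 15.5. The loss of NOP2 at 50 nM was thus 10.8% of its DMSO level in Ku and 47.1% in Cov. Over the 41 genes, the median share of the 250 nM loss that was present at 50 nM was 42.6% in Ku and 67.6% in Cov.

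The genes fell in a similar order in the lines. Across the 41 genes the log2 fold changes at 250 nM correlated between Ku and Cov (Pearson's r 0.851, Spearman's rho 0.863), as did those at 50 nM (0.891 and 0.842). Over all 14251 active genes r and rho were 0.672 and 0.712 at 250 nM and 0.475 and 0.592 at 50 nM. The points share no libraries between lines, but share transcript length and sequence, and genes are not independent replicates. Of the 41 genes, 13 kept under 20% of the DMSO level at 250 nM in each line. Over 50% was kept by 7 in Ku and by 1, NHP2, in Cov. The log2 DMSO level was weakly related to the log2 fold change, with r of 0.341 in Ku and 0.370 in Cov, as were log2 gene length (0.364 and 0.0957) and log2 exon number (0.364 and 0.197), and log2 transcript length had r of 0.04 and −0.05.

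**Figure D5:**
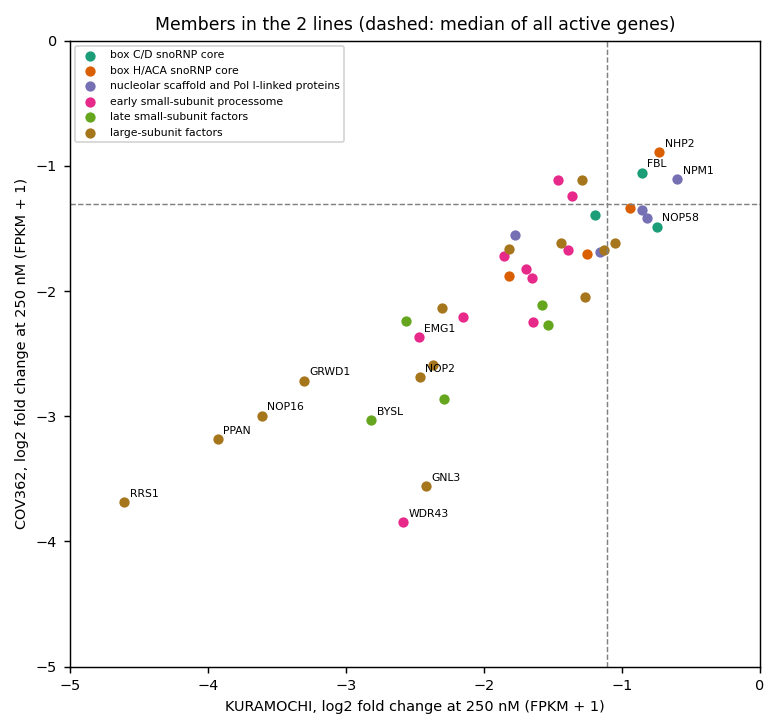
Log2 fold change of FPKM + 1 at 250 nM against DMSO on the spike-in scale in KURAMOCHI (x axis) and COV362 (y axis), 1 point per gene, coloured by role, with dashed lines at the median of all active genes (−1.11 and −1.31). RRS1, PPAN, NOP16 and GRWD1 lie far left, WDR43, RRS1 and GNL3 lie lowest, and NHP2, FBL and NPM1 lie nearest 0. With equal library medians 27 of the 41 values in Ku and 23 in Cov turned positive, and the medians of all active genes were 0.30 and 0.33.

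A further feature of some genes is that they carry small nucleolar RNAs in their introns. NOP56, NOP58, DKC1, NCL, WDR43, GNL3 and PPAN hold at least 1 snoRNA gene on their own strand in GRCh37. These 7 had a median log2 fold change at 250 nM of −1.25 in Ku and −1.71 in Cov, against −1.65 and −1.85 for the other 34, and ranged from −3.93 to −0.75 in Ku.

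Other ribosome biogenesis factors from a list of 87 more genes gave values in the same range. At 250 nM 85 of 87 were called lower in Ku and 87 of 87 in Cov, against 68.6% and 84.0% of active genes, with median log2 fold changes of −1.63 and −2.01, and at 50 nM 7 and 80 were called lower, against 11.3% and 70.5%. With equal medians their median was 0.25 in Ku and −0.01 in Cov. The largest falls were those of IMP3 and MPHOSPH10, which with IMP4 form the MPP10 complex of the processome. IMP3 went from 48.9 and 45.7 FPKM in Ku DMSO to 1.47 and 1.33 at 250 nM, and from 78.5 and 84.3 to 5.33 and 5.36 in Cov. MPHOSPH10 went from 41.6 and 33.3 to 2.95 and 3.06 in Ku and from 49.5 and 56.3 to 2.62 and 2.08 in Cov. The libraries of both genes were far apart, with log2 fold changes of −4.33 and −3.70 for IMP3 and −3.26 and −4.01 for MPHOSPH10, against −1.86 and −1.72 for IMP4. The smallest falls were those of WBSCR22, an 18S methyltransferase, at −0.46 and −0.96, and NSA2 at −0.61 and −1.02.

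The RNA polymerase I machinery, which makes the pre-rRNA, fell with the factors on the spike-in scale. At 250 nM 13 of 14 genes were called lower in Ku and 14 of 14 in Cov, against 68.6% and 84.0% of active genes, with medians of −2.03 and −2.19. At 50 nM 6 and 13 were called lower, against 11.3% and 70.5%. Its largest falls were those of the subunits CD3EAP at −3.12 and −2.63 and POLR1C at −2.67 and −3.01, and the smallest those of POLR1D at −1.74 and −1.53 and TAF1C at −1.19 and −1.17. Under equal medians its medians were −0.24 and −0.27. The mRNAs of the ribosomal proteins kept more of their level. Of 78 found on the spike-in scale, 9 were called lower at 250 nM in Ku and 67 in Cov, against the same 68.6% and 84.0% of active genes, with medians of −0.36 and −0.78. At 50 nM limma called 0 in Ku, where 2 were lower at an unadjusted p under 0.05, and 10 in Cov. RPL39 was at 2300 and 2030 FPKM in Ku DMSO and 2290 and 2040 at 250 nM, and at 5700 and 7040 and then 4140 and 3630 in Cov. The largest falls by the mean of the lines were those of RPL13 at −0.75 and −0.85 and RPL4 at −0.54 and −0.93. Under both other scalings the ribosomal protein medians turned positive, to 1.62 and 1.30 with equal medians. RPL21 was at 213 FPKM in 1 Cov library at 50 nM and at 0.121 in the other. The lists were not tested against each other.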

How the data were processed

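RNA-seq was performed on 12 libraries of polyA RNA. Per the labels and the study's methods, the authors mixed ERCC RNAs into RNA scaled to cell number, prepared stranded libraries, used HISAT to align single-end reads to hg19 and Cufflinks and Cuffnorm to obtain FPKM, and normalized the deposited FPKM to the spike-ins, with the lines in separate tables. Versions and the use of strand in counting are not given in the sources used here. FPKM are not counts, so edgeR, which the study names, was not used.

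Samples were grouped by line and dose from their labels. Of 23713 rows, 92 are ERCC RNAs and were left out. Genes with FPKM above 1 in at least 1 library (14251) were analysed as log2(FPKM + 1) in R 4.3.3 with lmFit and eBayes (trend on) from limma 3.58.1, in each line with 3 groups of 2 libraries. Tests are two-sided, and p-values were adjusted over these genes by the Benjamini-Hochberg method. Intervals are 95% limma intervals and include no adjustment.

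The 41 members and all lists were chosen with earlier results of these data known, and many of the members belong to the MYC target list the study tested on these samples. Values in every sample are given for the 3 largest and 3 smallest falls at 250 nM in each line, the snoRNP core proteins, NCL and NPM1, and members called in 1 line. For the other lists the 2 largest and 2 smallest falls by the mean of the lines are named. Ribosomal protein genes listed numbered 79, of which 78 were in the tables. Gene positions are from the GENCODE annotation lifted to GRCh37 (the build of hg19), and promoter windows, in GRCh38.p14, from RefSeq.

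Alternatives were eBayes without the trend, 0.1 as pseudocount, no minimum FPKM or one of 10, scaling to equal medians or by median-of-ratios, a fit of the compared groups alone, a replicate block, thresholds of 0.05 on the adjusted p or 1 on the log2 fold change, and each library left out in turn. Values were read with the R package data.table (1.17.8) and with pandas 2.3.3 in Python 3.11.15, and figures drawn with matplotlib 3.10.9.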

Additional observations from a re-analysis of the deposited data

How the results depend on the processing

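The fall of the 41 genes at 250 nM kept its direction under the alternatives that left the spike-in scale in place, and up to 8 genes in Ku and 1 in Cov lost their call under any 1 of them. Scaling the libraries otherwise changed it. With equal medians, the members called lower were 1, 8 and 7 in Ku (50 nM against DMSO, 250 nM against DMSO, 250 nM against 50 nM) and 0, 9 and 6 in Cov (0.589%, 11.7%, 6.59%, 0.154%, 11.3% and 5.05% of active genes), and with median-of-ratios 2, 14 and 9 in Ku and 0, 17 and 12 in Cov (2.72%, 19.0%, 11.1%, 0.772%, 18.9% and 7.92%). In Cov at 50 nM limma called none lower under either scaling, and 6 and 8 were lower at an unadjusted p under 0.05. The Ku count at 50 nM was 0 with no minimum FPKM and with a fit of the compared groups alone (30 and 32 lower at an unadjusted p under 0.05, with 0.0127% and 0.0632% of the genes tested called), and 17 at an adjusted p under 0.05 (40.2%). The counts at 250 nM against 50 nM were 18 in Ku and 19 in Cov with no minimum FPKM (8.05% and 9.0% of the genes tested). With a log2 fold change beyond 1 the Cov counts were 17 at 50 nM and 16 at 250 nM against 50 nM (35.5% and 14.3% of active genes). The cause of these changes was not tested, except that each threshold is what its alternative changes. Without 1 library the counts ranged from 0 to 0, 32 to 40 and 11 to 31 in Ku, and from 19 to 34, 40 to 41 and 13 to 28 in Cov, where the lowest at 50 nM was without the second DMSO replicate and the lowest at 250 nM against 50 nM without the second 250 nM replicate.

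Deviations of samples with the same replicate number correlated across genes between −0.0703 and 0.0282, so no pairing gene by gene was seen. A shift shared by all genes of a library cannot be seen in that check. Summed FPKM of the members was higher in the first than the second Ku library of each group (7697 and 7011, 6475 and 5907, 3973 and 3564). In Cov the first was lower in DMSO and at 50 nM and higher at 250 nM. Whether the numbers pair the samples is thus not known. With the replicate block the members called lower were 9, 41 and 40 in Ku and 26, 40 and 13 in Cov (6.94%, 66.6%, 34.7%, 51.0%, 78.6% and 7.93% of active genes). In that block fit NPM1 was called in Ku at 250 nM (limma adjusted p = 5.47e-05) and BOP1 was not in Cov (limma adjusted p = 0.00104). Of the 78 ribosomal protein genes the block fit called 21 lower in Cov at 250 nM and 1 at 50 nM, against 67 and 10 without the block, and of the 14 genes of the polymerase I machinery 3 in Ku at 50 nM, against 6. Of the other 87 factors it called 12 lower in Ku at 50 nM, against 7.

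With equal medians these log2 fold changes at 250 nM changed sign in Ku: UTP20 0.03, GAR1 0.06, IMP4 0.08, MRTO4 0.13, MYBBP1A 0.15, HEATR1 0.17, NOP14 0.22, RRP12 0.27, NOC4L 0.36, PNO1 0.39, PES1 0.49, RRP9 0.50, TBL3 0.54, BOP1 0.68, DKC1 0.69, GNL2 0.69, NOP56 0.77, DDX21 0.79, WDR12 0.80, DDX18 0.89, NOP10 1.03, FBL 1.12, NCL 1.13, NOLC1 1.14, NOP58 1.22, NHP2 1.25 and NPM1 1.38. In Cov they were NOP14 0.11, GAR1 0.13, HEATR1 0.14, WDR12 0.30, IMP4 0.31, DKC1 0.34, RRP9 0.35, DDX21 0.38, MRTO4 0.39, PES1 0.40, MYBBP1A 0.42, DDX18 0.42, NOP58 0.57, NOLC1 0.64, NOP56 0.67, NCL 0.72, NOP10 0.73, TBL3 0.76, NOC4L 0.84, BOP1 0.95, NPM1 0.97, FBL 1.02 and NHP2 1.18. With median-of-ratios they were TBL3 0.04, BOP1 0.16, GNL2 0.17, DKC1 0.18, NOP56 0.25, DDX21 0.28, WDR12 0.29, DDX18 0.37, NOP10 0.51, FBL 0.60, NCL 0.60, NOLC1 0.62, NOP58 0.70, NHP2 0.72 and NPM1 0.86 in Ku, and NOP58 0.11, NOLC1 0.18, NOP56 0.21, NCL 0.26, NOP10 0.27, TBL3 0.32, NOC4L 0.40, BOP1 0.49, NPM1 0.51, FBL 0.56 and NHP2 0.72 in Cov.

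The depth of the libraries is unknown, which leaves the counting error of low values such as PPAN at 250 nM unmeasured. Replicates are 2 per group, and whether they are separate cultures is not given in the sources used here, so p-values measure the spread between these samples only.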

Other observations

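The annotation places 3 snoRNA genes inside NOP56, 2 inside DKC1 and 3 inside NCL, and the tables have rows for snoRNAs of this kind. The libraries were made from polyA RNA. Their FPKM was near the lowest value of the library in most samples, with isolated high values. SNORD110, inside NOP56, was at 3930 FPKM in the first Cov DMSO library and 0.111 in the second. SNORD82, inside NCL, was at 4530 FPKM in the second Ku library at 50 nM and 0.107 in the first. SNORA36A, inside DKC1, was at 19.6 and 0.115 FPKM in the Cov libraries at 50 nM and at 20.6 and 22.7 at 250 nM. These rows were not compared between treatments.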
